A study of Mus musculus with 24 samples.

Results

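Claudins are the membrane proteins that form the strands of tight junctions, and 10 of their genes that epithelia of the early embryo can express were followed in the otocyst, the hollow epithelial vesicle from which the inner ear develops. The members were Cldn1, Cldn3, Cldn4, Cldn6, Cldn7, Cldn8, Cldn9, Cldn11, Cldn12 and Cldn23. They were chosen by name, with earlier results of these data known, and Cldn5 was left out as a claudin of endothelium. All 10 were found among the 15736 genes of the count table. RNA of pooled mouse otocyst epithelia was sequenced with and without a transgene, and the question was which transcripts change when signalling through FGFR2b, a receptor for fibroblast growth factors, is blocked.

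Control pools (con) carried Rosa26rtTA/+, a doxycycline-dependent activator expressed from a locus active in most cells. Experimental pools (R2b) carried Rosa26rtTA/+;Tg(tetO-s(dn)Fgfr2b)/+, which adds a secreted, dominant-negative form of FGFR2b under control of that activator. Every pregnant female received doxycycline, 1.5 mg/kg by injection and then chow with 200 mg/kg, so con and R2b embryos share the activator and the drug. Exposure ran from embryonic day E9.75 for 12 hours, from E9.25 for 24 hours or from E10.25 for 24 hours, so that both of the earlier exposures stopped at E10.25, and the third at E11.25. The otocysts of each female were pooled by genotype, and a litter therefore gave 1 con and 1 R2b library. The E9.75+12h exposure had 3 litters here and the others had 4, which makes 22 libraries of 18.7 to 28.2 M counts each.

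Reads on Ighg1, whose constant region is part of the secreted receptor construct, separated the genotypes in both exposures that ended at E10.25. They numbered 1 to 36 in con and 19414 to 76096 in R2b libraries. At E10.25+24h they went against the labels in litter 1, with 15754 in the library labelled con and 1504 in the library labelled R2b, and the library labelled con of litter 3 held 5106. The other libraries labelled con there held 16 and 28, and the other libraries labelled R2b 19155 to 25248. Results of that exposure are therefore given by label, with and without litter 1.

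Tight junctions close the space between neighbouring epithelial cells and set which ions and solutes may pass. The mix of claudins in the strands decides how tight and how ion-selective the barrier is, with some members sealing the gap and others forming pores. In the mature inner ear these junctions keep apart endolymph and perilymph, fluids of different ionic composition, and loss of several claudins is known to cause deafness.

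The members include 2 pairs of neighbouring genes. Cldn3 (ENSMUSG00000070473, chr5:134986214-134987472, plus strand of GRCm38) and Cldn4 (ENSMUSG00000047501, chr5:134945119-134946934, minus strand) lie 39279 bases apart and point away from each other. Cldn6 (ENSMUSG00000023906, chr17:23679249-23682446, plus strand) and Cldn9 (ENSMUSG00000066720, chr17:23682584-23684026, minus strand) end 137 bases apart with their last exons facing each other. The members of a pair are related in sequence, and the longest stretch without a mismatch between their coding sequences is shown here because it bears on how far reads can be told apart. It is 35 bases for Cldn3 and Cldn4, whose coding sequences were 69.8% identical, and 37 bases for Cldn6 and Cldn9, which were 73.3% identical and the closest of the 45 pairs of members.
Cldn3 and Cldn4: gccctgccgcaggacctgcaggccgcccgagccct
Cldn6 and Cldn9: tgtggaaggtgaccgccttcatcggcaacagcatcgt
A read longer than these stretches differs between the genes of the pair in at least 1 base. Whether the counting used the strand is not given in the sources used here, so reads past the end of Cldn6 or Cldn9 could not be assigned between those neighbours with certainty.

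The promoters of Cldn1, Cldn3 and Cldn11 are shown because these genes had the largest well-measured differences, and those of their neighbour or relatives Cldn4 and Cldn6 because these moved less. Each is the 250 bases before the start in RefSeq (GRCm38.p6), read along the gene. Promoters matched by symbol for 7 of the 10 members, not for Cldn8, Cldn9 and Cldn23. Capitals mark any match, on either strand, to AACNNGTT (the core bound by grainyhead-like factors), CCGGAA (the core bound by ETS factors, which act downstream of receptor tyrosine kinases) or CACCTG (the E-box bound by Snail and Zeb repressors). The 3 motifs share no bases in these promoters.
Cldn1 promoter, chr16:26371840-26372089, minus strand: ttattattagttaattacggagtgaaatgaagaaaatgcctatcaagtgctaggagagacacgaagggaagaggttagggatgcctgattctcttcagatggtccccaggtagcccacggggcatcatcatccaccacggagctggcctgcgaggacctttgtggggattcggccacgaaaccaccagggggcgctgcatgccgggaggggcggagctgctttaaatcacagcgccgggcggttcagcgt
Cldn3 promoter, chr5:134985964-134986213, plus strand: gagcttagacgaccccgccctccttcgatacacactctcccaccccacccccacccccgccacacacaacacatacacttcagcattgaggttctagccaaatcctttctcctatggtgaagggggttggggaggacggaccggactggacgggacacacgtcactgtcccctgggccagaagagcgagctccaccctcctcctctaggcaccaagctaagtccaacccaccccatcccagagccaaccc
Cldn11 promoter, chr3:31149670-31149919, plus strand: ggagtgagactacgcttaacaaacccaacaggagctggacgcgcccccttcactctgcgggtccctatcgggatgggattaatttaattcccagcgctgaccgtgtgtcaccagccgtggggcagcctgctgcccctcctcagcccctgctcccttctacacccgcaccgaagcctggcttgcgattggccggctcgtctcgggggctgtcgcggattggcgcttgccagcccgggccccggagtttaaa
Cldn4 promoter, chr5:134946935-134947184, minus strand: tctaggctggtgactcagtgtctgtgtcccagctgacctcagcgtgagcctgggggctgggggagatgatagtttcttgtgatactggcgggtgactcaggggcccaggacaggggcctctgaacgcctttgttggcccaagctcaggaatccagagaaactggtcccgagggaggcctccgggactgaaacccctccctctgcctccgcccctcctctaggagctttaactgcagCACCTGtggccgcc
Cldn6 promoter, chr17:23679115-23679364, plus strand: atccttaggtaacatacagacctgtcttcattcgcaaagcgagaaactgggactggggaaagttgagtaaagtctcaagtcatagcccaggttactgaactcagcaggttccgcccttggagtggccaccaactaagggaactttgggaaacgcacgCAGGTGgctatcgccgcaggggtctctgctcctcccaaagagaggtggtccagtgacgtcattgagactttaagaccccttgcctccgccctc
No match to any of the 3 motifs was found in the Cldn1, Cldn3 and Cldn11 windows. Cldn4 had an E-box 14 bases before its start and Cldn6 had one 93 bases before its start. Among all 32851 promoters of that length, 3.64% held the grainyhead-like core, 12.0% the ETS core and 17.2% the E-box. The windows of Cldn12 and Cldn7 held CCGGAA, and 1 of the 2 Cldn7 windows also held 2 E-boxes. A match is a string of letters and not a measured binding site.

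Compared per length, as TMM-scaled CPM (counts scaled to the library size) per kb of merged exon, Cldn6 had the highest level of the 10 in all 6 groups. Its con mean was 259 ± 42.5 CPM per kb (SD, n = 3) at E9.75+12h and 246 ± 38.6 (SD, n = 4) at E9.25+24h, and its lowest library stood above the highest library of the next member in every group. Cldn4, Cldn7, Cldn9 and Cldn3, in that order, formed a middle tier, with con means of 44.4 to 59.8 CPM per kb at E9.25+24h, where the ranges of neighbours overlapped. Cldn12 followed at 18.7 ± 1.21 CPM per kb (SD, n = 4) and did not overlap with the tier above it. Cldn8, Cldn1 and Cldn11 lay between 2.51 and 4.56 CPM per kb, and Cldn23 at 0.609 ± 0.220 (SD, n = 4) was the lowest in all 6 groups. Cldn6 supplied 51.9 to 52.6% of the summed level per length of the 10 in the con libraries of that exposure. Library numbers in the labels run in a separate series for each exposure, so levels of different exposures cannot be told apart from those series.

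**Figure D1:**
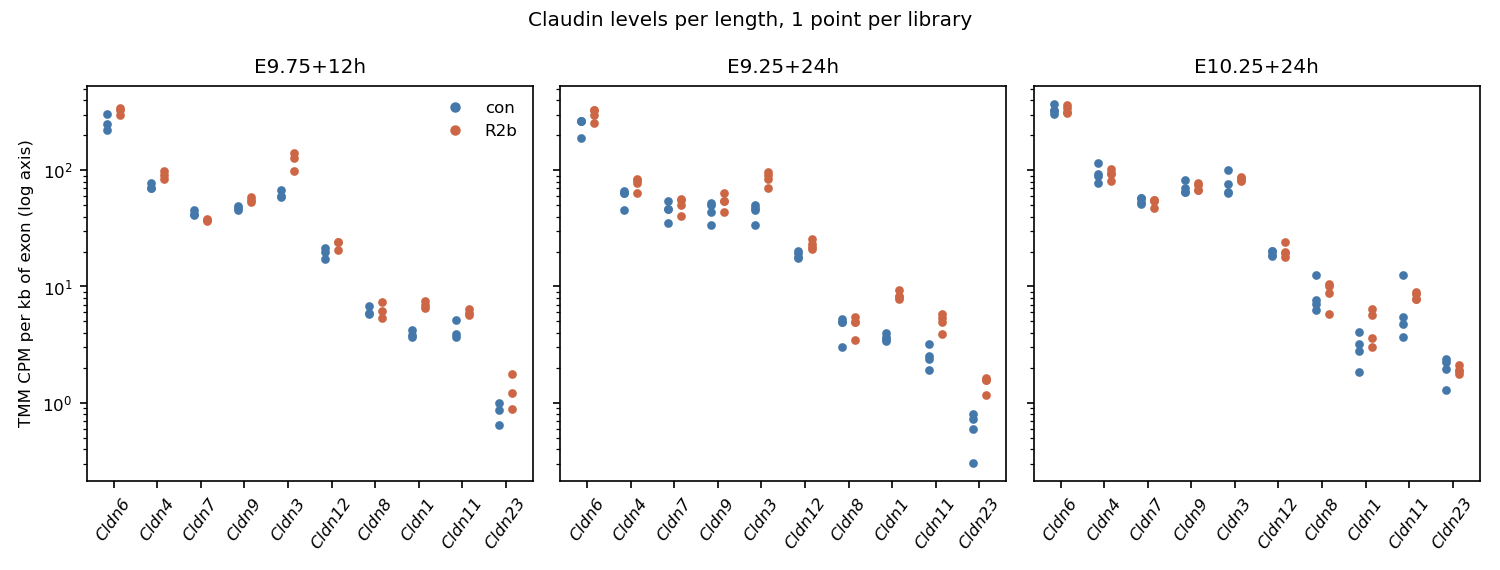
Levels of the 10 claudins in TMM CPM per kb of merged exon on a log axis, 1 point per library, for con and R2b pools of each exposure, with genes ordered by the con mean at E9.25+24h. Cldn6 stands highest and Cldn23 lowest in every group, and Cldn3 passes Cldn4 in mean level in R2b pools of both exposures that ended at E10.25.

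In both exposures that ended at E10.25, Cldn1 and Cldn3 rose in R2b otocysts, Cldn1 by 1.81-fold and 2.32-fold and Cldn3 by 1.99-fold and 1.93-fold for E9.75+12h and E9.25+24h. Cldn4 also rose at E9.75+12h, and Cldn11, Cldn12 and Cldn23 rose at E9.25+24h. No member was called lower. The FDR here is the Benjamini-Hochberg adjusted p of edgeR's quasi-likelihood test over all genes, and a gene was called under 0.05. All 10 members passed the filter on low counts in each exposure. At E9.75+12h 3 of the 10 were called higher, where 10.20% of 14882 genes were, and none was called lower, where 9.78% were. At E9.25+24h 5 of the 10 were called higher against 9.09% of 14979 genes, and none lower against 6.50%. Because the members were chosen with earlier results of these data known, these shares are a description and not a test of the family. Fitted differences had a median of 0.34 on the log2 scale over the 10 at E9.75+12h, where all genes tested had 0.01, and of 0.33 at E9.25+24h, where all genes tested had -0.01. Such medians were not particular to claudins. They were 0.34 and 0.26 for 13 otic epithelium markers, and 0.43 and 0.44 for 6 membrane proteases and inhibitors. Regulators of epithelial claudin genes had 0.38 and 0.01, and cytoplasmic partners of the junction -0.01 and 0.14. In pooled tissue a change in the number of expressing cells and a change in RNA per cell cannot be told apart.

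Every R2b library stood above every con library for 5 of the 10 members at E9.75+12h, as for 18.2% of genes, and for 5 of the 10 at E9.25+24h, as for 12.1% of genes. With the litter as a block in the fit, 2 members were called higher at E9.75+12h (Cldn1 and Cldn3), where 5.79% of genes were. At E9.25+24h the block raised the count to 9 (all but Cldn8), where 20.5% of genes were called higher.

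**Figure D2:**
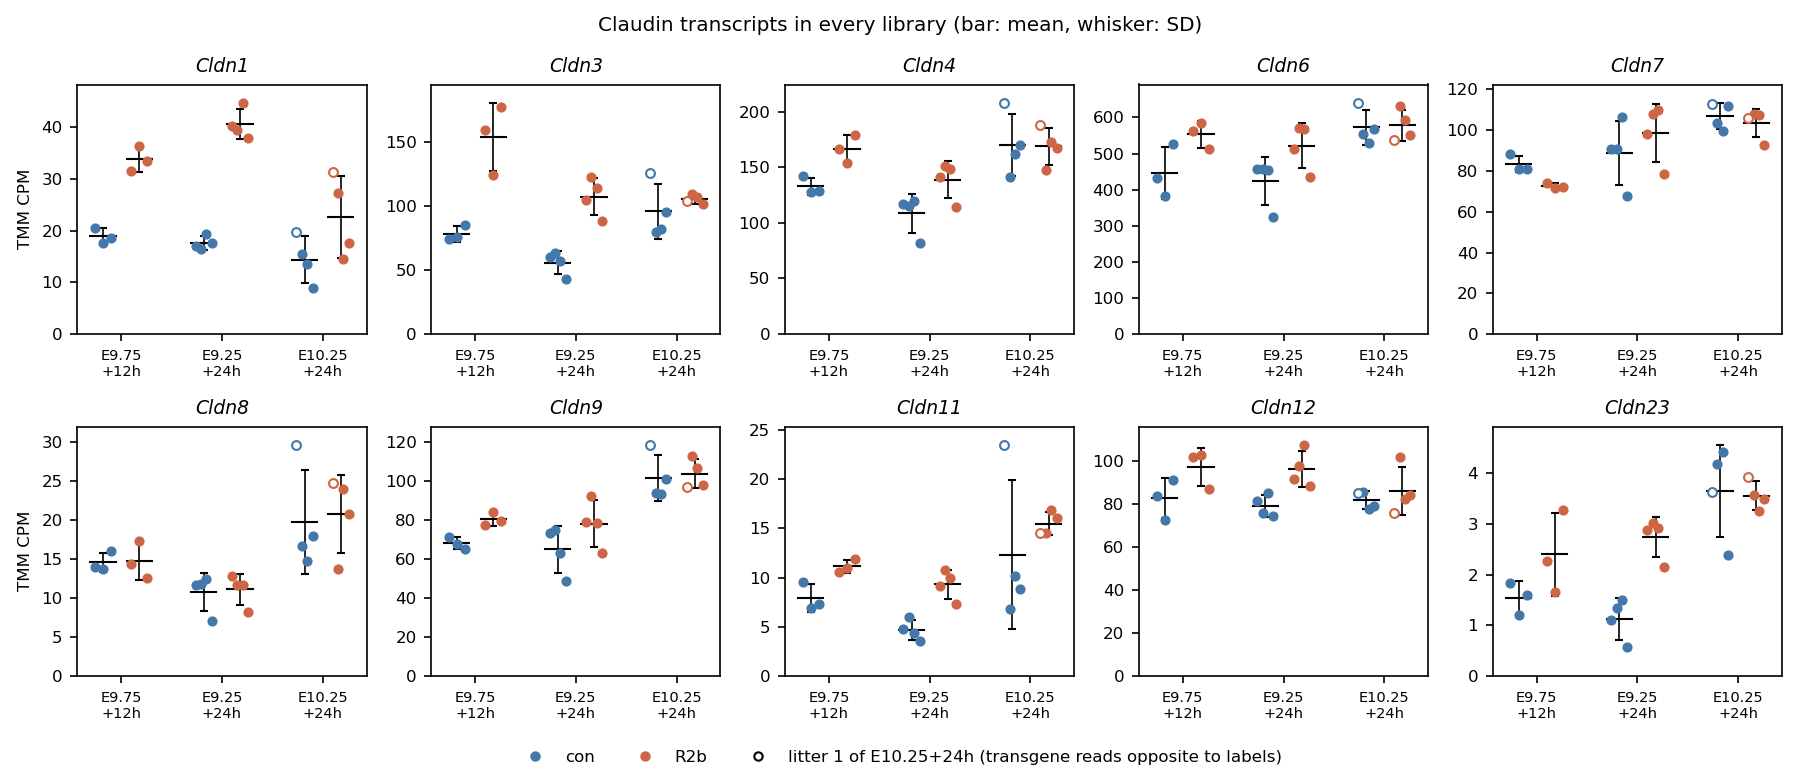
TMM CPM of each claudin in every library of the 3 exposures, with the mean as a bar and the SD as a whisker; open points are litter 1 of E10.25+24h. For Cldn1 and Cldn3 the R2b points lie above all con points in both exposures that ended at E10.25, and at E10.25+24h the groups overlap for all 10 genes.

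Cldn3 and Cldn4 encode barrier-forming claudins that occur together in many simple epithelia. After the 12-hour exposure Cldn3 stood at 74.2, 75.7 and 85.6 CPM in the con libraries of litters 1 to 3 and at 159.8, 124.6 and 177 CPM in their R2b partners. After E9.25+24h its con pools held 60.0, 63.7, 56.8 and 42.9 CPM and its R2b pools 105, 123, 114 and 88.5 CPM. The groups did not overlap in either exposure. On the log2 scale the differences were 0.99 (SE 0.130, FDR 0.000886) and 0.95 (SE 0.138, FDR 0.00424), and the call held in every alternative fit of both exposures.

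Its neighbour Cldn4 differed less. Con libraries of E9.75+12h had 142, 128 and 129 CPM of it and R2b libraries 167, 154 and 179 CPM. The con libraries of E9.25+24h had 117, 115, 120.1 and 82.3 CPM and the R2b libraries 141, 151, 149 and 115 CPM. The groups were apart in the first exposure and overlapped in the second. The log2 fold change was 0.35 (SE 0.0967, FDR 0.0279) at E9.75+12h and 0.36 (SE 0.133, FDR 0.0974) at E9.25+24h. The call at E9.75+12h was lost with the litter block (FDR 0.0681), in 1 fit of all libraries (FDR 0.0877), without litter 1 (FDR 0.159) and without litter 3 (FDR 0.249). It was also lost without the con library of litter 1, 2 or 3 (FDR 0.0502, 0.107 and 0.0970) and without the R2b library of litter 1 or 3 (FDR 0.0945 and 0.110). At E9.25+24h Cldn4 was higher in R2b in each litter, and it was called with the litter block (FDR 9.52e-05), in DESeq2 (adjusted p 0.0410), without litter 4 (0.33, FDR 0.00724) and without its R2b library (0.44, FDR 0.0497).

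The ratio of Cldn3 to Cldn4 level per length was 0.754 to 0.958 in con and 1.17 to 1.43 in R2b pools of the 12-hour exposure, and 0.682 to 0.798 in con and 1.07 to 1.17 in R2b pools of E9.25+24h. In both exposures Cldn4 was the more abundant of the pair in every con library and Cldn3 in every R2b library.

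Cldn1, a sealing claudin best known from the epidermal barrier, had 20.6, 17.7 and 18.6 CPM in the con and 31.5, 36.4 and 33.5 CPM in the R2b libraries of E9.75+12h. The con libraries of E9.25+24h held 17.0, 16.4, 19.4 and 17.7 CPM and the R2b libraries 40.3, 39.5, 44.7 and 38.0 CPM. The groups were far apart in both, and the spread within a group was small. Fitted log2 differences were 0.86 (SE 0.124, FDR 0.00141) and 1.21 (SE 0.0797, FDR 0.000155), and the call held in every alternative fit.

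Cldn7, which in many epithelia lies along the lateral membrane and binds the adhesion molecule Epcam, was not called in either exposure. At E9.75+12h its con libraries had 88.2, 81.1 and 80.9 CPM and its R2b libraries 74.0, 71.5 and 72.3 CPM. All R2b pools thus lay below all con pools. How many of all genes showed that order is not reported here, and 18.2% had the reverse order. At E9.25+24h con had 90.6, 90.9, 106 and 68.0 CPM and R2b 97.9, 108, 110 and 78.7 CPM, with overlap but with R2b higher in each litter. Its log2 fold changes were -0.18 (SE 0.0933, FDR 0.202) and 0.16 (SE 0.147, FDR 0.508). With the litter block it was called higher at E9.25+24h (0.16, FDR 0.0132). Epcam itself fell at E9.75+12h (-0.31, SE 0.0918, FDR 0.0379) and not at E9.25+24h (0.02, SE 0.150, FDR 0.951). The Epcam call was lost with the litter block (FDR 0.0808), without litter 1 (FDR 0.271) or litter 3 (FDR 0.207) and without any 1 library other than the R2b library of litter 2 (FDR 0.0635 to 0.128).

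Cldn6 is typical of embryonic epithelia, and Cldn9 is a cochlear claudin whose mutation deafens mice. In the E9.75+12h exposure Cldn6 had 431, 381 and 525 CPM in con libraries and 563, 585 and 513 CPM in R2b libraries. In the E9.25+24h exposure these were 458, 458, 454 and 324 CPM in con and 513, 572, 567 and 436 CPM in R2b. The groups overlapped in both exposures through con litter 3 of the first and litter 4 of the second. The fit gave 0.34 (SE 0.120, FDR 0.0703) and 0.31 (SE 0.131, FDR 0.142) on the log2 scale. Cldn6 was called in DESeq2 (adjusted p 0.0372), without litter 3 (0.51, FDR 0.0298) or its con library (0.45, FDR 0.0269) at E9.75+12h, and without litter 4 (0.27, FDR 0.0203) or with the litter block (FDR 0.000321) at E9.25+24h.

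In the E9.75+12h exposure Cldn9 had 71.4, 67.8 and 65.2 CPM in con and 77.4, 84.3 and 79.5 CPM in R2b, and the groups did not overlap. In the E9.25+24h exposure it had 73.1, 74.8, 63.2 and 48.8 CPM in con and 78.8, 92.4, 78.4 and 62.9 CPM in R2b, with overlap. Its log2 fold change of 0.26 (SE 0.0955, FDR 0.0751) and 0.27 (SE 0.154, FDR 0.261) was close in size to that of its neighbour Cldn6. It was called at E9.25+24h with the litter block (FDR 0.00123).

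Cldn11 forms the strands of myelin and of the basal cells of the stria vascularis, the cochlear tissue that maintains the endolymph potential. The E9.75+12h libraries had 9.56, 6.88 and 7.28 CPM in con and 10.5, 11.01 and 11.9 CPM in R2b. The E9.25+24h libraries had 4.77, 5.96, 4.42 and 3.61 CPM in con and 9.20, 10.8, 9.98 and 7.35 CPM in R2b. R2b libraries stood above con libraries in both exposures. The log2 fold change was 0.51 (SE 0.178, FDR 0.0633) at E9.75+12h, where it was called only without the con library of litter 1 (0.67, FDR 0.0447). At E9.25+24h it was 0.998 (SE 0.186, FDR 0.0113), and the call was lost without litter 1 (1.01, FDR 0.0866) and without litter 3 (0.94, FDR 0.0584).

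Cldn12, a claudin that lacks the usual PDZ-binding tail and takes part in calcium passage, had 83.7, 72.8 and 91.2 CPM in con libraries and 102, 103 and 86.8 CPM in R2b libraries of E9.75+12h. The E9.25+24h libraries had 81.5, 75.8, 85.3 and 74.2 CPM in con and 91.7, 97.5, 107 and 88.3 CPM in R2b, and the groups no longer overlapped. Its log2 difference was 0.26 (SE 0.113, FDR 0.129) in the first and 0.29 (SE 0.0731, FDR 0.0318) in the second. The latter call was lost without litter 1, 2 or 3 (FDR 0.117, 0.140 and 0.0503). It was also lost without the con library of litter 1, 2 or 4 (FDR 0.0572, 0.0648 and 0.0624) or the R2b library of litter 1, 2 or 3 (FDR 0.0662, 0.0907 and 0.0626).

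Cldn23 has the longest coding sequence of the members, 888 bases, and the fewest reads, 12 to 112 counts a library. The con pools of E9.75+12h had 1.83, 1.19 and 1.60 CPM and the R2b pools 2.26, 1.65 and 3.27 CPM. The con pools of E9.25+24h had 1.11, 1.34, 1.49 and 0.562 CPM and the R2b pools 2.88, 3.01, 2.91 and 2.15 CPM. Only in the second exposure were the groups apart. The fitted log2 difference was 0.65 (SE 0.341, FDR 0.202) and 1.29 (SE 0.290, FDR 0.0210). The latter call was lost without litter 1, 2 or 3 (FDR 0.128, 0.0976 and 0.0534), without the con library of litter 1 (FDR 0.0514) and without the R2b library of litter 1 or 2 (FDR 0.0651 and 0.0658).

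Cldn8, known from the distal nephron, showed no call in any fit of either exposure. The con pools of E9.75+12h had 14.0, 13.8 and 16.0 CPM and the R2b pools 14.4, 17.3 and 12.5 CPM. In E9.25+24h pools the values were 11.7, 11.8, 12.5 and 7.08 CPM for con and 12.8, 11.7, 11.7 and 8.16 CPM for R2b. The log2 fold change was 0.04 (95% interval -0.28 to 0.35) and 0.05 (95% interval -0.35 to 0.45), so a change of the size seen for Cldn1 or Cldn3 lies outside both intervals.

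**Figure D3:**
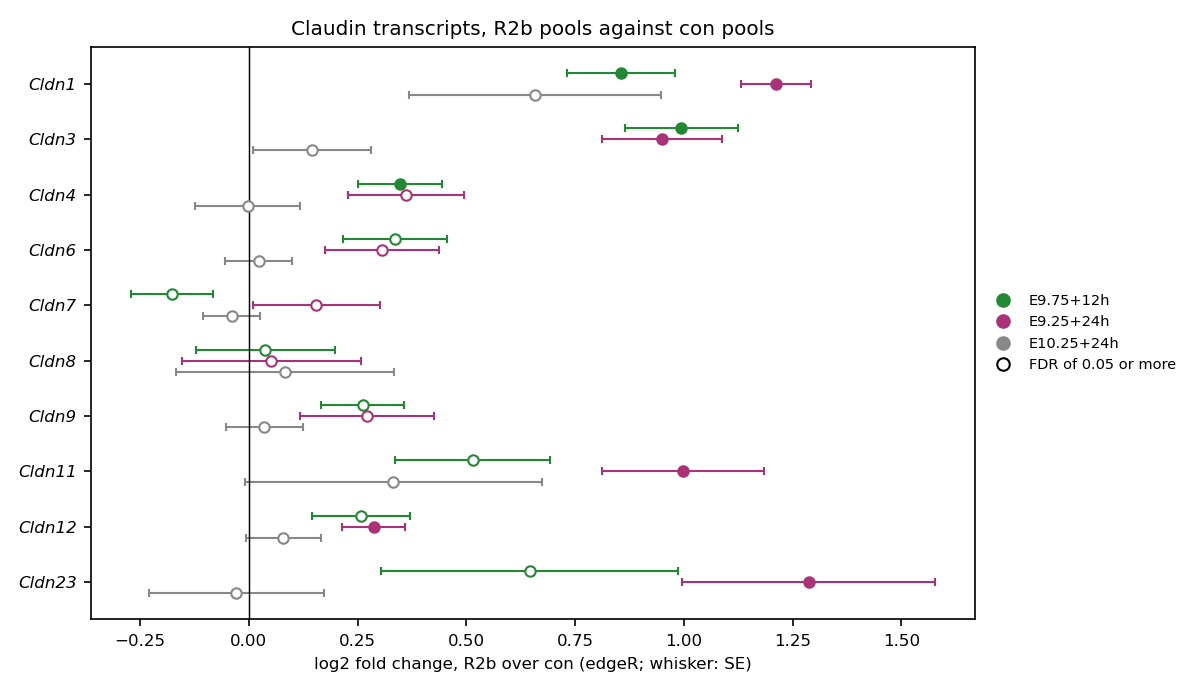
Log2 fold change of each claudin, R2b over con, in the 3 exposures from edgeR, with the SE as a whisker; filled points have an FDR under 0.05. Cldn1 and Cldn3 are filled in both exposures that ended at E10.25, and no point of E10.25+24h is filled.

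At E10.25+24h no member was called and all 10 overlapped between the labels. Over all genes 0% were called higher and 0% lower there, 1.15% had an unadjusted p under 0.05, and 0.474% had every library labelled R2b above every library labelled con. Under the con label Cldn1 had 19.8, 15.4, 13.5 and 8.97 CPM in litters 1 to 4, and under the R2b label 31.3, 27.3, 14.6 and 17.6 CPM. It was higher under the R2b label in each of the 4 litters, the first included. In litter 1 the library labelled con held more transgene reads, so by those reads that litter ran against the others. Its log2 fold change of 0.66 (SE 0.289) had an unadjusted p of 0.0488 and an FDR of 1, and 0.67 (FDR 0.298) without litter 1. It was the 1 member with an unadjusted p under 0.05.

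Cldn3 had 126, 79.8, 81.9 and 95.6 CPM under the con label and 104, 109, 107 and 101 CPM under the R2b label. The library labelled con of litter 1, which carried transgene reads, was the highest of the 8. Cldn11 had 23.5, 6.81, 10.22 and 8.88 CPM under the con label and 14.5, 14.5, 16.9 and 16.1 CPM under the R2b label, and again the library labelled con of litter 1 was the highest. In litter 1, 8 of the 10 members were lower in the library labelled R2b, with a median log2 difference of -0.21. In litters 2, 3 and 4, 8, 9 and 6 of the 10 were higher, with medians of 0.22, 0.14 and 0.09.

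Without litter 1 the log2 fold change of Cldn3 at E10.25+24h was 0.32 (SE 0.0785, FDR 0.143) and that of Cldn11 0.89 (SE 0.161, FDR 0.103), against 0.15 (SE 0.135) and 0.33 (SE 0.341) with it. These 2 members then stood apart between the labels, as did 10.7% of genes. With the litter block and without litter 1, Cldn11 was called higher (0.90, SE 0.109, FDR 0.0201), where 2.79% of genes were. Cldn4 (0.06, SE 0.0907), Cldn6 (0.13, SE 0.0635), Cldn7 (-0.02, SE 0.0727) and Cldn9 (0.16, SE 0.0636) were not called.

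The remaining members overlapped widely between the labels. Cldn4 had 142 to 208 CPM under the con and 147 to 188 CPM under the R2b label, Cldn6 529 to 640 and 536 to 632 CPM, Cldn7 99.7 to 113 and 93.0 to 108 CPM, and Cldn9 93.6 to 118 and 97.0 to 113 CPM. Cldn8 had 14.8 to 29.6 and 13.7 to 24.7 CPM, Cldn12 77.9 to 85.6 and 75.8 to 102 CPM, and Cldn23 2.39 to 4.42 and 3.25 to 3.92 CPM.

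**Figure D4:**
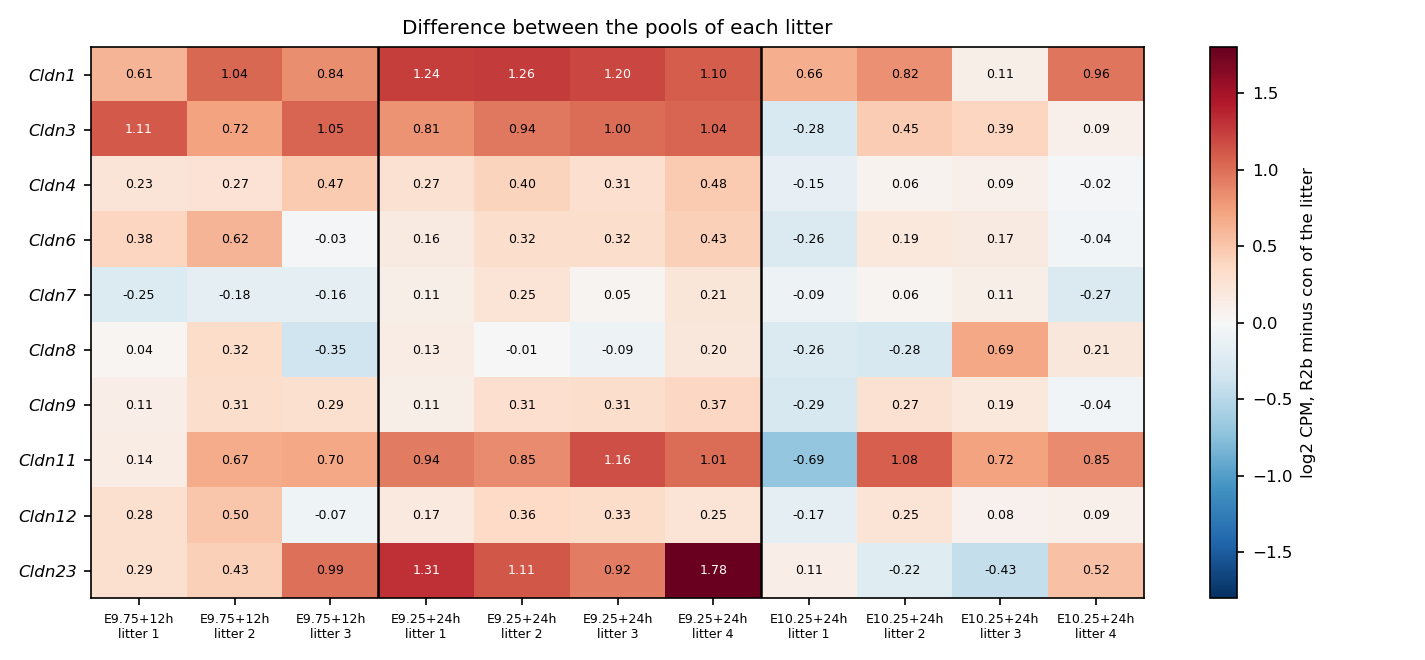
Log2 difference between the R2b and the con library of each litter for the 10 claudins (colour and printed value), with exposures divided by lines. By label, Cldn1 is above 0 in every litter, and litter 1 of E10.25+24h, whose transgene reads went against the labels, is below 0 for 8 of the 10 genes.

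The differences between exposures were tested as such, in a fit of all 22 libraries. For E9.25+24h against E9.75+12h no member was called, nor was any other gene (0% called, 12.2% with an unadjusted p under 0.05). Cldn7 came nearest, with 0.35 (SE 0.164, unadjusted p 0.0456, FDR 0.403). Cldn1 differed by 0.37 (95% interval -0.23 to 0.98) and Cldn3 by -0.03 (95% interval -0.45 to 0.40).

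For E10.25+24h against E9.25+24h no member was called either (0% called, 8.57% with an unadjusted p under 0.05). The effect on Cldn23 differed by -1.32 (SE 0.369, unadjusted p 0.00187, FDR 0.248) and that on Cldn3 by -0.81 (SE 0.200, unadjusted p 0.000648, FDR 0.192). Cldn4 also had an unadjusted p under 0.05 (-0.37, SE 0.171, p 0.0446). These values rest on the labels of E10.25+24h, litter 1 included.

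Among 19 other claudins looked for, 8 were in the table. Cldn14, a claudin of hair and supporting cells whose loss causes deafness, had 0.679, 0.284 and 0.331 CPM in con libraries and 2.26, 1.69 and 2.75 CPM in R2b libraries of E9.75+12h. In libraries of E9.25+24h it had 0.433 to 0.692 CPM in con and 1.41 to 2.64 CPM in R2b. The groups were apart, and the log2 fold change was 2.36 (SE 0.421, FDR 0.00379) and 1.85 (SE 0.258, FDR 0.00348). Its con level was at most 0.692 CPM, so the size of these differences rests on few reads. Cldn10, which forms ion-selective pores, moved the other way, with 3.71, 4.10 and 3.20 CPM in con and 0.218, 0.763 and 1.48 CPM in R2b pools of the 12-hour exposure, and 2.30 to 3.53 CPM in con and 0.477 to 0.728 CPM in R2b pools of E9.25+24h. Its log2 fold change was -2.16 (SE 0.478, FDR 0.0103) and -2.22 (SE 0.235, FDR 0.00119). The first of these calls was lost without litter 1 (-1.70, FDR 0.0764). In R2b pools Cldn10 was at 0.218 to 1.48 CPM over both exposures, so these sizes also rest on few reads. Cldn22 rose at E9.75+12h (0.82, SE 0.225, FDR 0.0261), a call that was lost with the litter block (FDR 0.0753), without litter 1 or 2 (FDR 0.271 and 0.0733), without any con library (FDR 0.0527 to 0.0777) and without the R2b library of litter 1 (FDR 0.135).

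**Figure D5:**
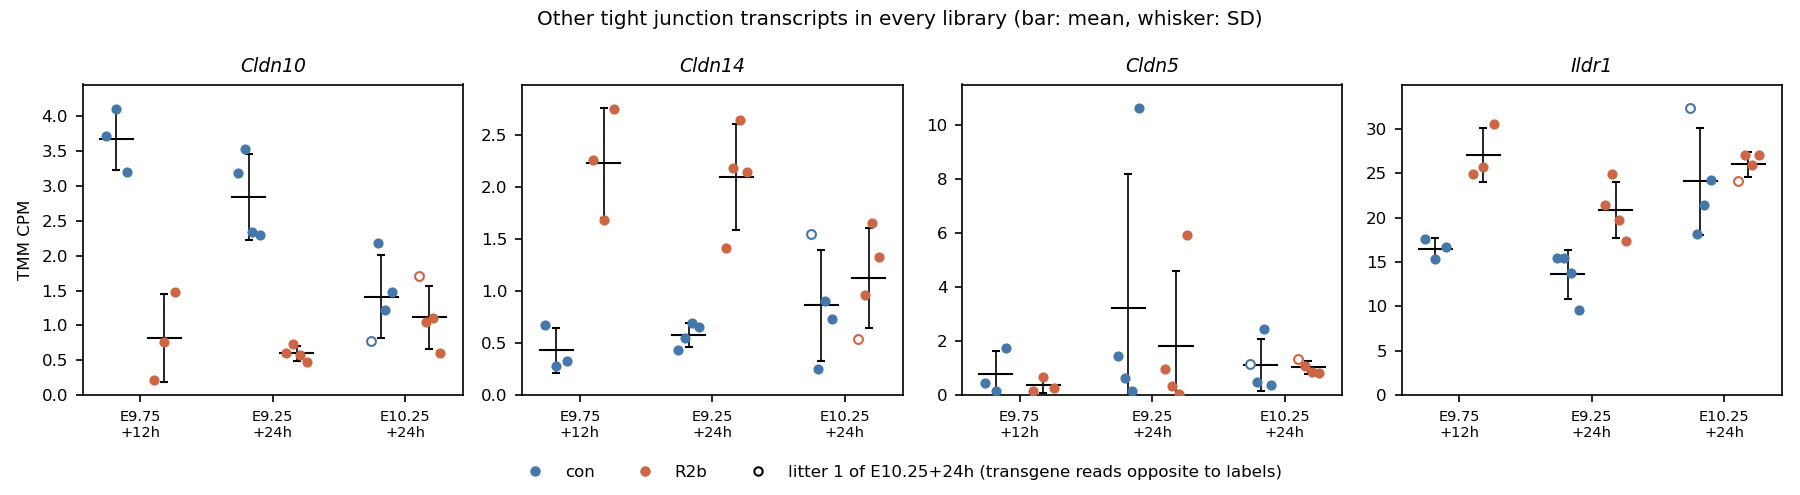
TMM CPM of Cldn10, Cldn14, Cldn5 and Ildr1 in every library, with the mean as a bar and the SD as a whisker, cut at 0; open points are litter 1 of E10.25+24h. Cldn10 is lower and Cldn14 and Ildr1 are higher in the R2b pools of both exposures that ended at E10.25, and the high Cldn5 points belong to litter 4 of E9.25+24h.

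The other genes of the junction were counted in the same way. Of 36 partners in the table, counting the other claudins and the membrane and cytoplasmic partners, 4 of 34 tested were called higher and 1 lower at E9.75+12h, where 10.20% and 9.78% of all genes were. At E9.25+24h 6 of 36 were higher and 2 lower, against 9.09% and 6.50% of all genes, and with the litter block 16 were higher and 6 lower, against 20.5% and 20.1%. None was called at E10.25+24h. Ildr1, an angulin of the corners where 3 cells meet and a deafness gene, rose in both exposures, with means of 16.5 ± 1.14 CPM in con and 27.0 ± 3.06 CPM in R2b pools (SD, n = 3) in the first and 13.6 ± 2.76 and 20.9 ± 3.17 CPM (SD, n = 4) in the second. Its log2 fold change was 0.73 (SE 0.136, FDR 0.00466) and 0.62 (SE 0.172, FDR 0.0408). The scaffold gene Amotl2 rose by 0.52 (SE 0.102) and 0.31 (SE 0.0705) on the log2 scale. At E9.25+24h Prkci, the atypical protein kinase C of the polarity complex, rose by 0.25 (SE 0.0401) and was called in 23 of 24 fits. Tjp1, the ZO-1 scaffold that binds claudin tails, rose by 0.14 (SE 0.0375) there, and Amotl1 fell by 0.19 (SE 0.0441). Tjp1 was called in 11 of 24 fits and Amotl1 in 15 of 24. Without the litter block, the Tjp1 call was lost in every fit that left out a litter or a library. Ocln, the occludin gene, was at 0.08 (SE 0.118, FDR 0.675) and 0.09 (SE 0.142, FDR 0.713), and Tjp1 at E9.75+12h at -0.00296 (SE 0.0956).

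Of 15 regulators of epithelial claudin genes, 14 were tested in the 12-hour exposure. There 3 were called higher and none lower, where 10.20% and 9.78% of all genes were. In the E9.25+24h exposure 13 were tested, with 3 higher and none lower, against 9.09% and 6.50% of all genes. With the litter block 2 were higher in the first exposure, against 5.79% of all genes. In the second the block gave 4 higher and 1 lower, against 20.5% and 20.1%. Klf5, a Krüppel-like factor of epithelial progenitors, rose by 0.71 (SE 0.136) and 0.78 (SE 0.183) on the log2 scale, and Elf3, an epithelial ETS factor, by 0.60 (SE 0.145) and 0.70 (SE 0.157). Esrp2, a splicing factor that promotes the epithelial form of Fgfr2, rose by 0.54 (SE 0.149) at E9.75+12h, and was called in 11 of 20 fits. Esrp1, of the same list, went the other way there. All its R2b libraries stood below all con libraries, with log2 differences of -0.34 to -0.17 within litters, and it was not called. The share of all genes in that order is not reported here, and 18.2% had the reverse order. Grhl2, which activates Cldn3 and Cldn4 in other epithelia, was at -0.12 (SE 0.0864, FDR 0.362) and 0.01 (SE 0.126, FDR 0.961). Among membrane proteases and their inhibitors, Prss8 rose in both exposures (0.59, SE 0.0999, and 0.55, SE 0.120), and Spint1 and Spint2 rose at E9.75+12h (0.44, SE 0.0949, and 0.41, SE 0.106).

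Many calls on partners, regulators, proteases and markers were lost when a litter, and with it a share of the libraries, was left out. Of 21 such calls at E9.75+12h, 18 were lost without litter 1 (FDR 0.0531 to 0.300), 2 without litter 2 and 6 without litter 3, and those of Cldn14, Lum and Dcn held without each. Of 17 at E9.25+24h, 13 were lost without litter 1 (FDR 0.0789 to 0.205), 12 without litter 2, 9 without litter 3 and 1 without litter 4. Those of Cldn10, Cldn14 and Pax2 held without each of the 4. Leaving out 1 library lost 1 to 7 calls in the first exposure and 1 to 12 in the second. The log2 differences themselves kept their direction, at 0.707 to 1.36 times their value over all libraries in the first exposure and 0.730 to 1.24 times in the second, over each litter or library left out.

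The otic identity of the pools was checked on 13 markers, all present in the table and none at 0. Their summed level was 4412 to 4684 CPM in con and 4799 to 5807 CPM in R2b at E9.75+12h, and 2595 to 4001 and 3573 to 5505 CPM at E9.25+24h. At E9.75+12h 6 of the 13 were called higher and 1 (Epcam) lower, where 10.20% and 9.78% of all genes were. At E9.25+24h 2 were higher and 2 lower, against 9.09% and 6.50% of all genes. The otic factor Pax2 rose by 0.78 (SE 0.116) and 0.64 (SE 0.0618) and Cdh1, E-cadherin, by 0.47 (SE 0.0862) and 0.61 (SE 0.133), while Hmx3 fell by 0.72 (SE 0.173) at E9.25+24h. Gbx2 and Sox10 rose at E9.75+12h (0.50, SE 0.0942, and 0.51, SE 0.107). The part of this shift in the claudin values was not tested.

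Surface ectoderm and periderm, epithelia that also express claudins, were represented by 5 of 10 markers listed. Their sum was 45.8 to 53.7 CPM in con and 54.3 to 71.4 CPM in R2b at E9.75+12h, and 37.6 to 61.2 and 48.3 to 82.7 CPM at E9.25+24h. In these sums Sfn was called higher at E9.75+12h (1.41, SE 0.401) and Perp at E9.25+24h (0.92, SE 0.211), while Krt15 reached at most 0.643 CPM and Trp63 at most 1.31 CPM in a library of these exposures. At E10.25+24h the sum was highest, at 188 and 136 CPM, in the library labelled con of litter 2 and the library labelled R2b of litter 1. Pharyngeal endoderm markers summed to 0.850 to 7.83 CPM over both exposures that ended at E10.25. The part of ectoderm in the claudin values was not tested.

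Markers of cells outside the epithelium differed between litters. Within E9.25+24h they were highest in litter 4, whose con and R2b libraries had 281 and 131 CPM of endothelial markers, against 15.3 to 50.3 CPM in the other 6, and 1313 and 1217 CPM of mesenchymal markers, against 90.6 to 446 CPM. Blood markers summed to 1657 and 640 CPM there, against 9.68 to 253 CPM. The highest blood sum of the 22 libraries, 5052 CPM, was in the library labelled R2b of litter 3 of E10.25+24h. Cldn5, the endothelial claudin, had 10.6 and 5.92 CPM in litter 4 of E9.25+24h and 0.0447 to 1.44 CPM in the other 6. Within both genotypes, 9 of the 10 members, all but Cldn1, had their lowest level in that litter. Without it Cldn1 was at 1.24 and Cldn3 at 0.92 on the log2 scale at E9.25+24h, both still called. At E9.75+12h mesenchymal Lum and Dcn and, in the other direction, endothelial Tek were called (1.15, SE 0.210; 1.03, SE 0.219; -1.41, SE 0.341).

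Across the 22 libraries, after subtraction of each exposure's mean log2 CPM, members varied together to different degrees. Of the 45 pairs of members, Cldn3 with Cldn4 had the highest Pearson correlation, 0.848, and Cldn6 with Cldn9 the next, 0.844. Pairs that are not neighbours came close, such as Cldn6 with Cldn12 (0.838), Cldn3 with Cldn11 (0.821) and Cldn4 with Cldn11 (0.807). The lowest was Cldn1 with Cldn7, at 0.108. Libraries of a litter share a female, and genotype and tissue purity differ between libraries, so these values are descriptions without a test. Among 15688 genes, those most like Cldn6 were F11r (0.912), Dlx5 (0.906) and Ano6 (0.902), of which F11r encodes a junctional adhesion molecule of the tight junction and Dlx5 is an otic factor. Most like Cldn4 were Ralgps1 (0.905), Csmd1 (0.902) and Ifnlr1 (0.902), and most like Cldn3 were Man2b2 (0.965), Olfm2 (0.962) and Pld2 (0.960).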

How the data were processed

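RNA of pooled otocyst epithelia was sequenced from poly(A)-selected, stranded libraries, per the labels' protocols. The authors deposited 1 table of raw read counts per gene. Novoalign 2.08.03 and the mm10 build are named in the submitters' processing notes, and the counting tool, its strand setting and the annotation release are not given in the sources used here. Symbols, positions and exon lengths were taken from GENCODE M21 on GRCm38, where 15522 of 15736 identifiers were found.

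A column was given to the sample whose title holds its library number, which placed 22 of 24 samples. The 2 columns of the table that named no sample were not used, and litter 4 of E9.75+12h was not analysed here. Totals were 18.7 to 28.2 M counts. Pairs of libraries of a group differed by more than sampling noise (chi-square per degree of freedom 5.48 to 44.2 over 30 pairs), so none was a duplicate. The members and lists were chosen with earlier results of these data known.

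R2b was tested against con within each exposure by the quasi-likelihood test of edgeR 4.0.16 (R 4.3.3), after filterByExpr and TMM scaling. The Benjamini-Hochberg adjusted p is written FDR and was called under 0.05, and SEs were derived from the F statistic. Differences between exposures were contrasts in 1 fit of all 22 libraries. The fits were tested on simulated data. Log2 CPM used a prior count of 2. Without the litter block, the p-values measure the spread between pools of a genotype, each from a separate female, and do not use the pairing. With the block they measure how the difference between the pools varies between litters.

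Con and R2b pools of a litter are paired by the labels. Same-litter correlations of deviations from the group means across genes were 0.42 to 0.77 at E9.25+24h, -0.11 to 0.39 at E10.25+24h and -0.25 to -0.11 at E9.75+12h, where the pairing rests on the labels alone. Alternatives were the litter block, DESeq2 1.42.0, a mean of at least 1 CPM as the filter, no filter, other scaling, 1 fit of all libraries, and leaving out each litter or library. All members were named. Of the other lists, called genes were named, at most 4 a list and exposure by smallest FDR, and also Cldn5, Ocln, Tjp1, Epcam and Grhl2. Some genes that met this rule are not reported here. Genes most like a member were the 3 of highest correlation for the 3 members of highest level per length.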

Additional observations from a re-analysis of the deposited data

Results flagged for a closer look

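In 40 groups of 4 libraries, each member's lowest and highest value was compared with the gap to the nearest other library, and 5 values stood apart by Dixon's test at the 95% level. Chance alone marks about 1 group in 20. In the con library of litter 4 of E9.25+24h, Cldn4 was at 82.3 CPM against 115 to 120.1 CPM in the other 3 litters, Cldn6 at 324.1 CPM against 454 to 458 CPM, and Cldn8 at 7.08 CPM against 11.7 to 12.5 CPM. In the R2b library of the same litter Cldn23 was at 2.15 CPM against 2.88 to 3.01 CPM. Without that litter, Cldn4 and Cldn6 were called higher at E9.25+24h. Cldn7 was at 93.0 CPM in the library labelled R2b of litter 4 of E10.25+24h against 106 to 108 CPM in the other 3.

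Cldn7 differed in sign between the exposures that ended at E10.25, and without the litter block it was called in neither. In each of the 3 litters of E9.75+12h it was lower in the R2b library, with -0.16 as the difference nearest 0 on the log2 scale, and in each of the 4 litters of E9.25+24h it was higher, by 0.05 to 0.25. The share of all genes with such a change of sign is not reported here. The difference between the exposures' effects was 0.35 (SE 0.164, edgeR FDR 0.403) and did not pass the threshold. It was called with the litter block once litter 2 of E9.75+12h was left out.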

How the results depend on the processing

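Cldn1 and Cldn3 were called higher in both exposures that ended at E10.25 under every alternative run, those without 1 litter or library included. Over all alternatives and members, 552 values kept direction and side of the threshold, 30 passed it and 28 fell below it. Another 40, of which all but 1 left out a litter or library, changed sign. With the replicate block, which pairs the pools of a litter, 9 members were called at E9.25+24h where 5 were without it. Over all genes that block called 20.5% higher and 20.1% lower there, against 9.09% and 6.50% without it. In the 12-hour exposure 2 members were called in place of 3, and in the last exposure 0. Partners of the tight junction called at E9.25+24h rose from 8 to 22 with this block. For E9.75+12h they numbered 5, and 8 in 1 fit of all libraries. DESeq2 called 4 members in the 12-hour exposure and 6 for E9.25+24h. The share of all genes that DESeq2 called is not reported here, so these counts stand without a background. It also called Cldn3 as the 1 member whose effect was different in the last exposure from that of E9.25+24h. Single litters were left out with and without the litter block, and single libraries without it. Over these fits, members called numbered 2 to 3 in the 12-hour exposure, 2 to 9 for E9.25+24h and 0 to 1 in the last exposure. Cldn7 and Cldn9 were called at E9.25+24h only with the block. In the last exposure Cldn11 was called only with the block and without litter 1 (FDR 0.0201, against 0.103 without the block). Partners numbered 0 to 9 in the 12-hour exposure and 2 to 22 for E9.25+24h. Most shares of all genes called in these fits are not reported here, so the counts stand without a background. Members with a different effect numbered 0 to 1 in either comparison of exposures, namely Cldn7 for E9.25+24h against E9.75+12h and Cldn3 in the other. Signs changed, with neither value called, for Cldn4 in the last exposure with the block (0.00607) and for Tjp1 in the 12-hour exposure with a mean CPM of at least 1 (0.00477). Without single litters or libraries the log2 difference ranged, for E10.25+24h, from -0.087 to 0.117 for Cldn4, -0.043 to 0.13 for Cldn6, -0.094 to 0.031 for Cldn7, -0.11 to 0.36 for Cldn8, -0.048 to 0.16 for Cldn9, -0.012 to 0.17 for Cldn12 and -0.19 to 0.15 for Cldn23. In the 12-hour exposure it ranged from -0.14 to 0.20 for Cldn8, -0.069 to 0.20 for Ocln and -0.078 to 0.048 for Tjp1. For E9.25+24h it ranged from -0.11 to 0.18 for Cldn8, -2.79 to 1.25 for Cldn5, -0.051 to 0.16 for Ocln, -0.11 to 0.11 for Epcam and -0.10 to 0.10 for Grhl2. The cause of these changes was not tested. Cldn23, at 12 to 112 counts a library, was the member most limited by depth.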
